A study of Homo sapiens with 12 samples.

Results

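The zinc-finger genes of chromosome 19 were followed across 12 RNA-seq libraries of gastric cancer cells in which ZNF165, itself a zinc-finger gene on another chromosome, had been lowered or raised. The genes were the protein-coding genes that GENCODE places on chromosome 19, whose symbol is ZNF followed by digits alone, and whose raw counts summed to at least 120 over the 12 libraries. Of 240 genes with such a symbol, 186 met the count minimum, out of 50868 gene identifiers in the deposited table. Members were thus selected on their summed counts, so a high total is not a result. A gene that reached the minimum in 1 line alone had to differ between the lines. Just inside the minimum lay ZNF583 with 122 counts and ZNF66 with 142, and just outside lay ZNF114 with 105 and ZNF844 with 103. Of the 54 genes under the minimum, 17 had no count in any library.

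MKN28 and MKN45 are established lines of gastric cancer cells. Each of the 4 groups held 3 libraries of total RNA: wild-type MKN28 cells given a control lentivirus, MKN28 cells given a lentivirus with an siRNA against ZNF165 (genotype: ZNF165 knockdown), wild-type MKN45 cells given the control lentivirus, and MKN45 cells given a lentivirus carrying ZNF165 (genotype: ZNF165 overexpression). All groups therefore share lentiviral transduction, knockdown was carried out in MKN28 alone and overexpression in MKN45 alone. Separate cultures or clones are not named in the labels, so each p-value reflects the spread among libraries that may be technical replicates. Knockdown replicates 2 and 3 are described as carrying siRNA against ZNF166 and ZNF167, and were grouped by their genotype field, which reads ZNF165 knockdown.

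Most genes of this family encode DNA-binding proteins in which a row of C2H2 zinc fingers follows a KRAB domain. The KRAB domain binds the corepressor TRIM28, which brings in the histone methyltransferase SETDB1, heterochromatin proteins and a histone deacetylase complex, and many of the proteins silence transposable elements. The genes arose by repeated tandem duplication and lie in clusters on chromosome 19, so neighbours are often close paralogs. A smaller number of ZNF genes on the chromosome encode proteins without a KRAB domain, and several of these are short and GC-rich.

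By a sequence pattern of the KRAB A box in the translated GENCODE coding sequence, 154 of the 186 members encoded a KRAB domain and 32 did not. A member held a median of 12 C2H2 fingers, from 0 by the pattern used to 31 in ZNF91. Members with the KRAB pattern had a median transcript GC content of 42.4%, and those without it 61.5%. Splitting the chromosome wherever neighbouring genes started more than 1 Mb apart gave 16 clusters, numbered from the start of the chromosome. The largest were cluster 16 (46 members, 55.5 to 58.5 Mb), cluster 15 (30 members, 51.6 to 53.6 Mb), cluster 12 (23 members, 43.5 to 45.1 Mb), cluster 5 (22 members, 19.7 to 24.1 Mb) and cluster 3 (20 members, 11.5 to 12.6 Mb). Positions are those of GRCh38 in GENCODE 29; the build used by the authors is not given in the sources used here.

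Promoter sequences were matched in RefSeq (GRCh38.p14) for 166 of the 186 members. Those of 4 members are shown because these genes were expressed in 1 line and were at or near 0 counts in the other: ZNF256 and ZNF606 in MKN45 alone, ZNF320 and ZNF433 in MKN28 alone. Each sequence runs 5′ to 3′ from 250 bases before the transcription start to 50 after it, and capitals mark the dinucleotide CG, the site of DNA methylation.
ZNF256 (chr19:57947657-57947956, minus strand, 26 CG): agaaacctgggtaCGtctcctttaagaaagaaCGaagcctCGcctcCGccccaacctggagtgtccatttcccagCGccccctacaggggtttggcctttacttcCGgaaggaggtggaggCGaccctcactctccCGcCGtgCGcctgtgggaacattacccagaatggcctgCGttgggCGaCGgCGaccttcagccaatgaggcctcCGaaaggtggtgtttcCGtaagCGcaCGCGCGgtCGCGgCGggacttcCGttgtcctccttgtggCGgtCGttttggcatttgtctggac
ZNF606 (chr19:58002771-58003070, minus strand, 34 CG): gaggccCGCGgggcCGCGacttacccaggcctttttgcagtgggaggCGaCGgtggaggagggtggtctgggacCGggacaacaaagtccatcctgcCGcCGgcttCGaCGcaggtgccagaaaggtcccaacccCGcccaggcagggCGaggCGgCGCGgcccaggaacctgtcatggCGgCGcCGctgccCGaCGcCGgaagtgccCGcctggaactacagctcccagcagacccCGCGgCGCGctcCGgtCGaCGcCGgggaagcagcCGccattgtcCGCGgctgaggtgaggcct
ZNF320 (chr19:52897645-52897944, minus strand, 20 CG): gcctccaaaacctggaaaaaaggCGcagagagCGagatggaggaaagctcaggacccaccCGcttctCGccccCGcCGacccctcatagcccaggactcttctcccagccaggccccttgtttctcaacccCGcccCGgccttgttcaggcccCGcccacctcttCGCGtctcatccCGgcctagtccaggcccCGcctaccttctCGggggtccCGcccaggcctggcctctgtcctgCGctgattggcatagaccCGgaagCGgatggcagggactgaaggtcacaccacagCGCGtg
ZNF433 (chr19:12035630-12035929, minus strand, 22 CG): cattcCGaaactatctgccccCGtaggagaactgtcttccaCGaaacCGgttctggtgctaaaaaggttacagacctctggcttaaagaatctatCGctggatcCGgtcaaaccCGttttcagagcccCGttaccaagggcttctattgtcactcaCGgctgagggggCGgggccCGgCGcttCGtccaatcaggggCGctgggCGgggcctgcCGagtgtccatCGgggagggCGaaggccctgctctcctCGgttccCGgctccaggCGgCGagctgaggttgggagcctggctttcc
Counted in the same way, member promoters held a median of 21 CG, and 157 of 166 (94.6%) held 10 or more. Over all 27305 promoters in the RefSeq table the median was 14 and 56.0% held 10 or more. Of the 16 members with at most 3 counts in all 6 libraries of a line, 15 had a promoter sequence, with a median of 19 CG, and 13 held 10 or more. The letters CG read the same on both strands, and the counts describe the reference sequence, with no methylation measured in these cells.

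Library totals ranged from 12075813 to 19548445 counts, and 3 counts, the level a gene at 0 counts could have had, came to 0.129 to 0.410 CPM per library on the scale used here. ZNF165 had 262, 186 and 287 counts in MKN28 controls, 74, 40 and 22 in the knockdown, 156, 140 and 277 in MKN45 controls and 2115, 1977 and 1909 in the overexpression, so the targeted gene followed the labels in all 12 libraries. Epithelial markers (EPCAM, CDH1, KRT8, KRT18, KRT19 and CLDN4) were detected in every group. Markers of other cell types were not all near 0. The 5 leukocyte markers summed to 7.18 to 35.5 CPM in MKN28 controls, 35.4 to 62.2 in the knockdown, 93.8 to 120 in MKN45 controls and 139 to 207 in the overexpression, nearly all of it from CD68 in MKN28 and LYZ in MKN45, while PTPRC had at most 3 counts in any library. The 4 fibroblast markers summed to 80.7 to 95.6, 29.5 to 89.6, 15.3 to 18.6 and 18.7 to 22.1 CPM in the same order, mainly from COL1A1, with DCN at no more than 2 counts. The 3 endothelial markers summed to at most 1.69 CPM. The part of these markers in the results was not tested. Levels are CPM, read counts relative to the library total after scaling by TMM factors, given as mean ± SD over 3 libraries. Log2 fold changes are fitted by edgeR and given with their standard error (SE). A call means an edgeR quasi-likelihood Benjamini-Hochberg adjusted p under 0.05 over all genes tested.

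The members were a small share of the RNA. They took 0.280 ± 0.0913% of counts in MKN28 controls, 0.193 ± 0.0117% in the knockdown, 0.157 ± 0.0420% in MKN45 controls and 0.212 ± 0.0122% in the overexpression (SD, n = 3 each). By an exact permutation test (two-sided), p was 0.3 for the knockdown and 0.1, the smallest that 3 against 3 libraries allow, for the overexpression and for the line comparison. Scaled by TMM factors, the members summed to 2310 ± 566 CPM in MKN28 controls, 3095 ± 1041 CPM in the knockdown, 1418 ± 301 CPM in MKN45 controls and 1789 ± 80.0 CPM in the overexpression, so for the knockdown the order of the means depends on the scaling. Over the 4 group means, the median member stood at 1.69 CPM per kb of transcript. Members without the KRAB pattern had a median of 6.42 CPM per kb and those with it 1.57. The highest level per kb belonged to ZNF787, at 147 CPM per kb over the 4 group means, followed by ZNF581 at 66.5, ZNF428 at 24.5, ZNF146 at 24.2, ZNF574 at 18.1, ZNF358 at 16.7, ZNF444 at 14.7 and ZNF580 at 14.2. None of these 8 carried the KRAB pattern. ZNF787, ZNF581 and ZNF428 owe their rank largely to the knockdown group, where ZNF787 reached 1004 ± 675 CPM against 60.4 ± 22.6 CPM in the MKN28 controls, and ZNF428 119 ± 61.5 CPM against 18.5 in the MKN28 and 0.715 in the MKN45 controls. ZNF146 is a protein made of zinc fingers and almost nothing else. It stood at 123 ± 39.1 CPM in MKN28 controls, 77.8 ± 57.0 CPM in MKN45 controls and 157 ± 22.3 CPM in the overexpression. It was not called in the overexpression (edgeR adjusted p = 0.304).

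**Figure D1:**
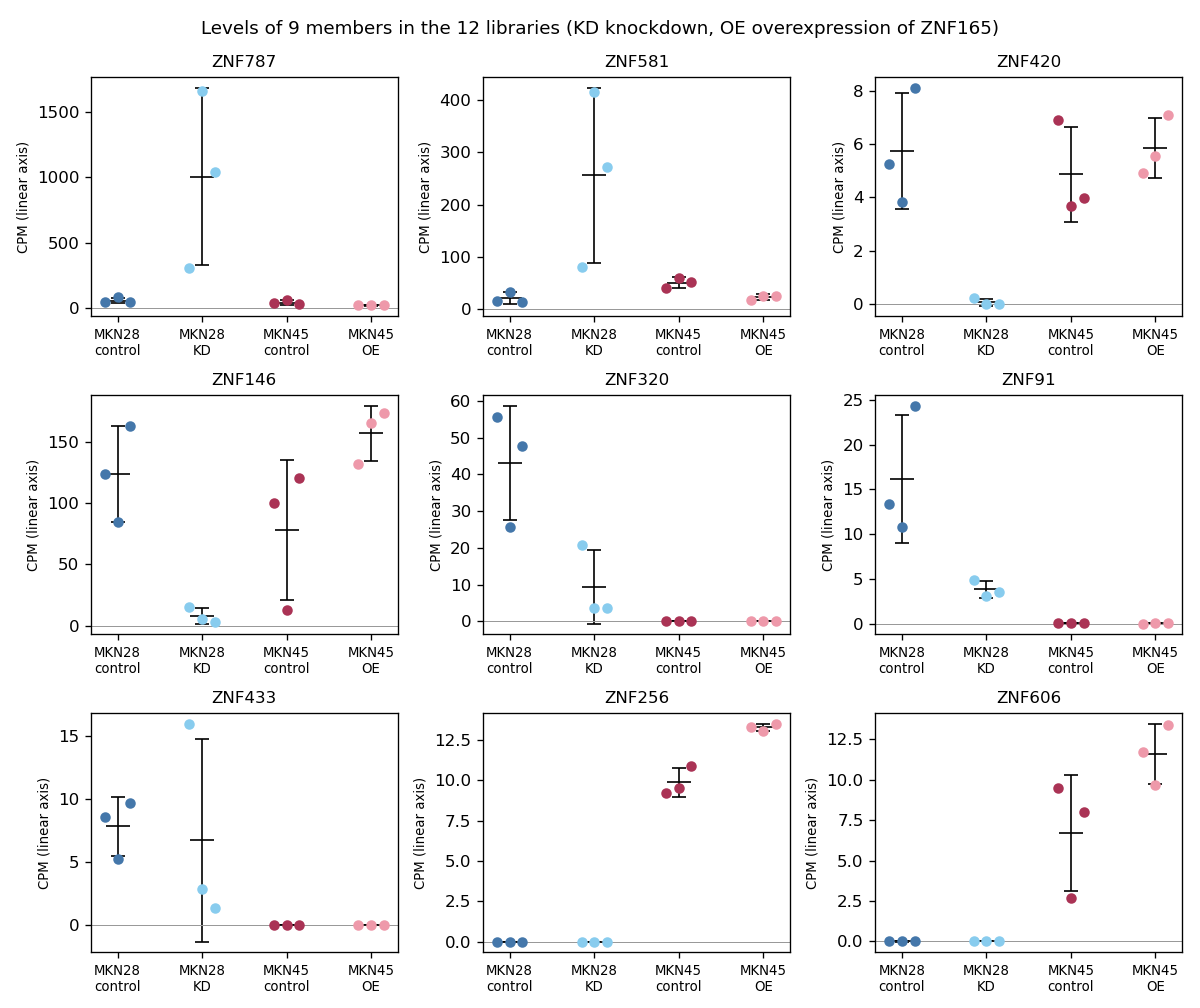
CPM of 9 members in the 12 libraries, 1 panel per gene on a linear axis; points are libraries, bars the mean and SD of each group (n = 3). ZNF787 and ZNF581 were high in the knockdown, ZNF420 and ZNF146 low there, ZNF320, ZNF91 and ZNF433 at or near 0 in MKN45, and ZNF256 and ZNF606 at or near 0 in MKN28.

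The line comparison set the control libraries of MKN45 against those of MKN28. Many chromosome 19 ZNF genes were lower in MKN45, and 16 members had at most 3 counts in all 6 libraries of 1 line. Of 183 members tested, 14 were higher and 60 lower in MKN45, so 40.4% of members were called where the background over all 16088 genes tested was 41.8%. With the replicate block, 98 were called (18 higher, 80 lower) against a background of 55.6%. The share called was thus close to the background, and the directions were not: 32.8% of members were lower against 20.4% of all genes, and 7.65% higher against 21.4%. These shares, of members and of all genes, include genes that passed the test filter through 1 line alone. For those genes a difference was set by the selection. The median log2 fold change was -0.66 for the members and -0.04 for all genes tested, and that of the members was -0.40 without MKN28 control replicate 3 and -0.44 without MKN45 control replicate 2. ZNF genes on other chromosomes gave 19 higher and 70 lower of 206, with a median of -0.78, so lower levels in MKN45 were seen for them too. The other 814 protein-coding genes of the chromosome that were tested gave 152 higher and 137 lower, with a median of 0.03. Fewer cells of a kind and less RNA per cell cannot be told apart in such bulk libraries.

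The lower calls lay mainly in 3 clusters, picked out after their values were seen. In cluster 3, 14 of 20 members were lower and none was higher, with a median log2 fold change of -1.76. In cluster 5, 12 of 20 tested members were lower and 2 higher (median -1.70), and in cluster 15, 19 of 30 were lower and 1 higher (median -1.68). In the other clusters together, 15 of 113 were lower and 11 higher, with a median of -0.16. Cluster 12 had 3 lower and 1 higher of 23, and cluster 16, the largest, 5 lower and 3 higher of 45. The 3 clusters held 32 to 52 lower calls and 3 to 5 higher over all 14 alternative settings, and the other clusters 7 to 28 lower and 8 to 15 higher, with 28 lower and 15 higher under the replicate block. The cluster counts and medians include members that passed the count minimum and the test filter through MKN28 alone. For these a lower level in MKN45 was set by the selection. Of the 12 members with at most 3 counts over all MKN45 libraries, 11 lay in clusters 3, 5 and 15. The clusters were not tested against each other.

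**Figure D2:**
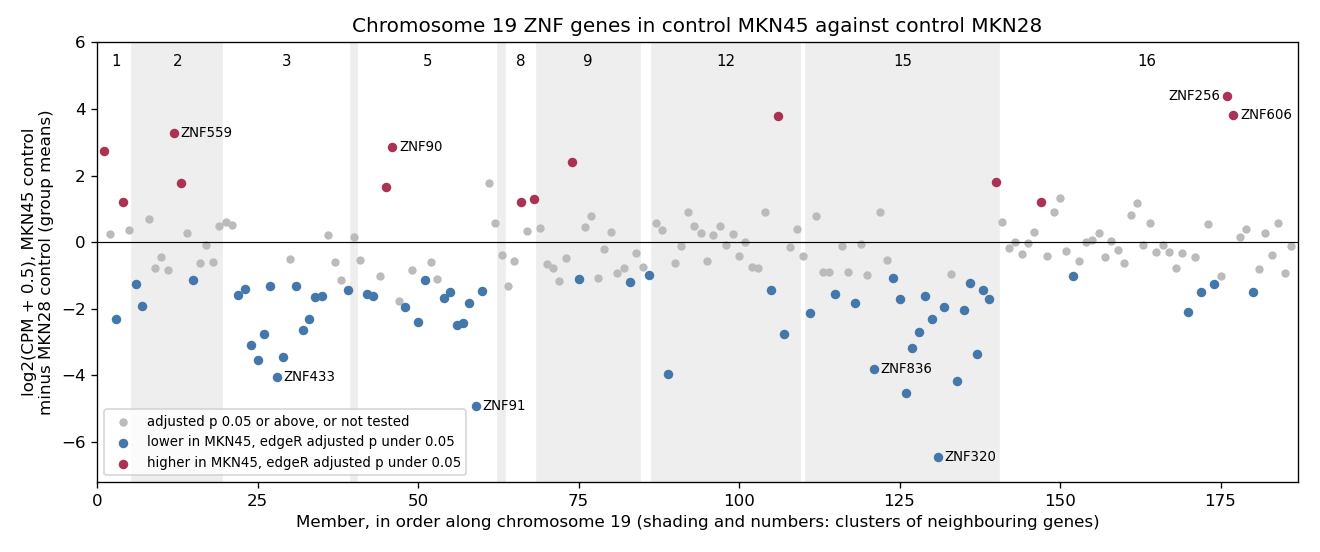
Difference in log2(CPM + 0.5) between the means of MKN45 and MKN28 control libraries (y axis) for the 186 members in their order along chromosome 19 (x axis), with clusters shaded in turn and those of 5 or more members numbered. Lower calls (blue) crowd clusters 3, 5 and 15, while ZNF256 and ZNF606 stand high at neighbouring places in cluster 16.

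ZNF320, in cluster 15 (ENSG00000182986, chr19:52863790-52897693, minus strand), showed the largest difference. It had 1220, 513 and 1046 counts in MKN28 controls and 0 in each MKN45 control. Its level of 43.1 ± 15.5 CPM in MKN28 was at least 769-fold higher than the floor of 3 counts over the MKN45 group. Its edgeR adjusted p was 1.89e-06. As ZNF320 passed the count minimum and the test filter through MKN28 alone, a difference was set by the selection and the p-value adds no support. In the overexpression libraries it had 1, 0 and 0 counts, so it was at or near 0 in all 6 MKN45 libraries. Exact 50-base stretches found in other genes made up 30.8% of those in its transcript. The remainder had no match in the representative transcript of another gene. ZNF320 overlaps ZNF468 and other annotated genes on the same strand, and reads in the overlap cannot be assigned to 1 of them.

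ZNF433, in cluster 3 (ENSG00000197647, chr19:12014732-12035741, minus strand), had 188, 104 and 212 counts in MKN28 controls and 0 in all 6 MKN45 libraries. Its MKN28 level of 7.84 ± 2.32 CPM was at least 140-fold higher than the group floor. ZNF347 (277, 48 and 230 counts) and ZNF836 (182, 53 and 189 counts), both in cluster 15, were at 0 in all MKN45 controls and gave bounds of at least 152-fold and 117-fold. All 3 had non-overlapping groups, but they passed the count minimum and the test filter through MKN28 alone, so this separation followed from the selection. ZNF69, ZNF229, ZNF563, ZNF257, ZNF665, ZNF442 and ZNF492 followed the same pattern with 98 to 186 counts over the MKN28 controls and 0 over MKN45, at bounds of at least 27.8-fold to 51.3-fold. ZNF66, just inside the count minimum, had 78 counts in MKN28 controls and 0 in MKN45 and was not tested. In all, 12 members had at most 3 counts over the 6 MKN45 libraries, 10 of them 0, and 11 of the 12 lay in clusters 3, 5 and 15. These genes were interspersed with expressed ones: in cluster 3, ZNF700 lies between ZNF69 and ZNF433 and had 117, 67 and 166 counts in MKN45 controls. A pair of next neighbours, ZNF347 and ZNF665, were silent together, as were ZNF563 and ZNF442.

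ZNF91 (ENSG00000167232, chr19:23304991-23395560, minus strand), the member with the most fingers and a repressor of SVA retrotransposons, had 292, 215 and 532 counts in MKN28 controls and 1 in each MKN45 control. The ratio of 16.2 ± 7.18 CPM in MKN28 to the MKN45 level was 288, with an exact Poisson 95% interval of 98.6 to 1397 from counting error in MKN45 alone (edgeR adjusted p = 1.84e-06). ZNF91 too passed the count minimum and the test filter through MKN28 alone, so a difference between the lines was set by the selection. ZNF93 and ZNF43, related genes of the same cluster, had only 3 and 5 counts over the 12 libraries and were under the minimum. ZNF428, short, GC-rich and without the KRAB pattern, also differed strongly, at 18.5 ± 4.08 CPM in MKN28 controls and 0.715 ± 0.460 CPM in MKN45 controls (log2 fold change -4.69, SE 0.55, edgeR adjusted p = 2.98e-05).

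Fewer members were found in MKN45 alone. ZNF256 (ENSG00000152454, chr19:57940833-57947675, minus strand) had 0 counts in all 6 MKN28 libraries, 187, 147 and 194 in MKN45 controls and 298, 305 and 276 in the overexpression. The MKN45 control level of 9.89 ± 0.894 CPM was at least 210-fold higher than the floor of 3 counts over the MKN28 controls (edgeR adjusted p = 4.02e-06). ZNF606, the next member along in cluster 16, had 1 count over the 6 MKN28 libraries and 192, 41 and 142 in MKN45 controls. Its ratio was 427, with an exact Poisson 95% interval of 76.6 to 16853. Both ZNF256 and ZNF606 passed the count minimum and the test filter through MKN45 alone, so a difference between the lines was set by the selection. ZNF559 and ZNF177, neighbours in cluster 2, were likewise near 0 in MKN28: ZNF559 had 163, 19 and 85 counts in MKN45 controls against 0, 0 and 2, and ZNF177 had 11, 17 and 36 against 0. GENCODE lists a read-through gene over both, which shares 76.9% of the 50-base stretches of ZNF177, so reads of ZNF177 and of the read-through cannot be told apart. ZNF90, in cluster 5, had 54, 40 and 73 counts in MKN45 controls and 0 in MKN28 controls, at least 66.2-fold higher. ZNF583, just inside the minimum, had 43 counts in MKN45 controls and 0 in all MKN28 libraries. ZNF285, ZNF682, ZNF461 and ZNF331 were called higher too. ZNF331, an imprinted gene, stood at 2.52 ± 1.37 CPM in MKN45 controls and 0.357 ± 0.209 CPM in MKN28 controls (log2 fold change 2.79, SE 0.65, edgeR adjusted p = 0.00437). ZNF285, ZNF682, ZNF461 and ZNF331 passed the test filter through MKN45 alone, as did ZNF559, ZNF177 and ZNF90. For all of them a difference was set by the selection, and the p-value of ZNF331 adds no support.

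The knockdown comparison asked what lowering ZNF165 did in MKN28. Among members with the KRAB pattern 55 were called lower and 3 higher, and among those without it 3 lower and 13 higher. Of 173 members tested, 16 were higher and 58 lower, 42.8% against a background of 40.8% of 14939 genes called, of which 19.2% were higher and 21.6% lower. Both counts include genes that passed the test filter through 1 group alone, for which a difference was set by the selection. The median was -1.22 for members and -0.20 for all genes tested, and scaling by library totals alone moved the median of all genes to -0.92 and that of the members to -1.88. The 141 members tested with the KRAB pattern had a median of -1.44 and the 32 without it a median of 0.92. ZNF genes on other chromosomes had 26 higher and 66 lower of 199 (median -1.19), close to the members, while the other protein-coding genes of chromosome 19 had 297 higher and 53 lower of 777 (median 1.07).

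These directions moved with base composition and transcript length. Across the 173 members, fold change rose with GC content (Spearman's rho 0.54) and fell with length (rho -0.38), and across 14864 genes tested with a known length the values were 0.52 and -0.52, given as descriptions over genes of the same 6 libraries. With smooth trends on length and GC content removed from each library, 30 members were higher and 19 lower, with a median of 0.04, and the background was then 41.1% called. Members with the KRAB pattern gave 17 higher and 17 lower (median -0.14), and those without it 13 higher and 2 lower (median 0.81). Of the 58 lower calls, 17 were also called lower after trend removal, and of the 16 higher calls, 15 were also called higher.

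Single libraries also weighed on it. Relative to the mean of the controls, the median KRAB member lay at -0.47 in knockdown replicate 1, -1.76 in replicate 2 and -1.93 in replicate 3, and at 0.05, -0.47 and 0.35 in control replicates 1 to 3. Knockdown replicate 1 thus lay just below control replicate 2, the lowest control, by this measure. Without it, 129 members were called, and of 793 other protein-coding genes of chromosome 19, 460 were higher and 76 lower. Without control replicate 1 there were 35 calls of members, and without control replicate 3 there were 34. The other protein-coding genes of the chromosome then had 100 higher and 22 lower of 783, and 119 higher and 36 lower of 787. Their calls thus moved the same way as those of the members. The share of mitochondrial counts was 6.32 ± 1.08% in the controls and 3.73 ± 1.28% in the knockdown, and its part in the result was not tested. The number of members at 0 counts was 6 to 7 per control library and 7, 29 and 23 in knockdown replicates 1 to 3.

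**Figure D3:**
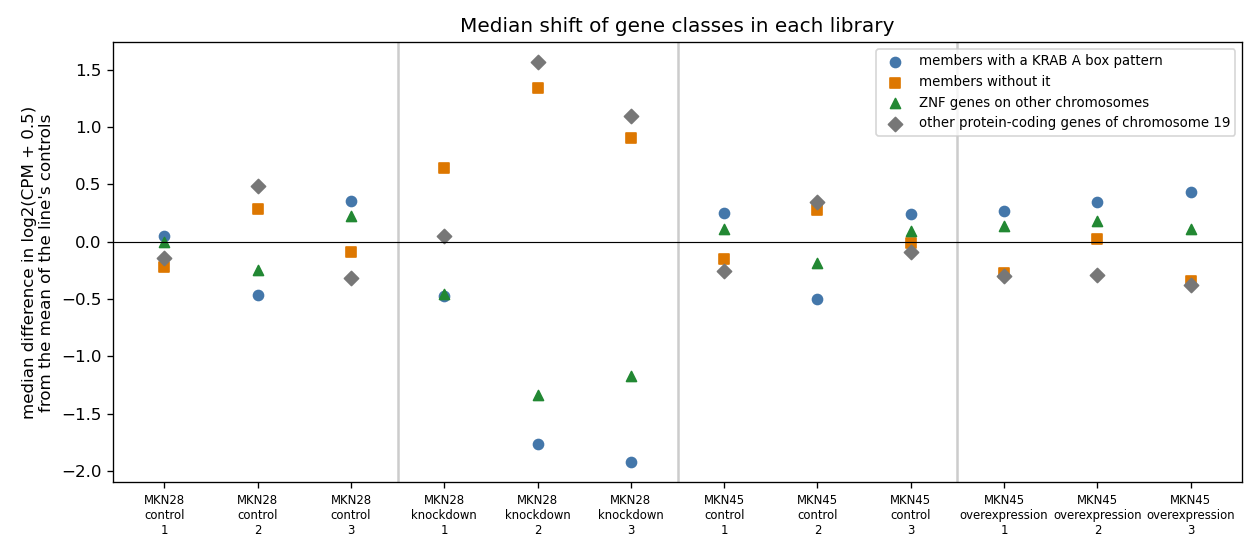
Median difference in log2(CPM + 0.5) from the mean of the line's own controls (y axis) in each of the 12 libraries, for members with and without the KRAB A box pattern and for 2 comparison classes. In knockdown replicates 2 and 3 the KRAB members lie at -1.76 and -1.93 and the members without the pattern at 1.34 and 0.91, and MKN28 and MKN45 control replicates 2 show a smaller split of the same direction.

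**Figure D4:**
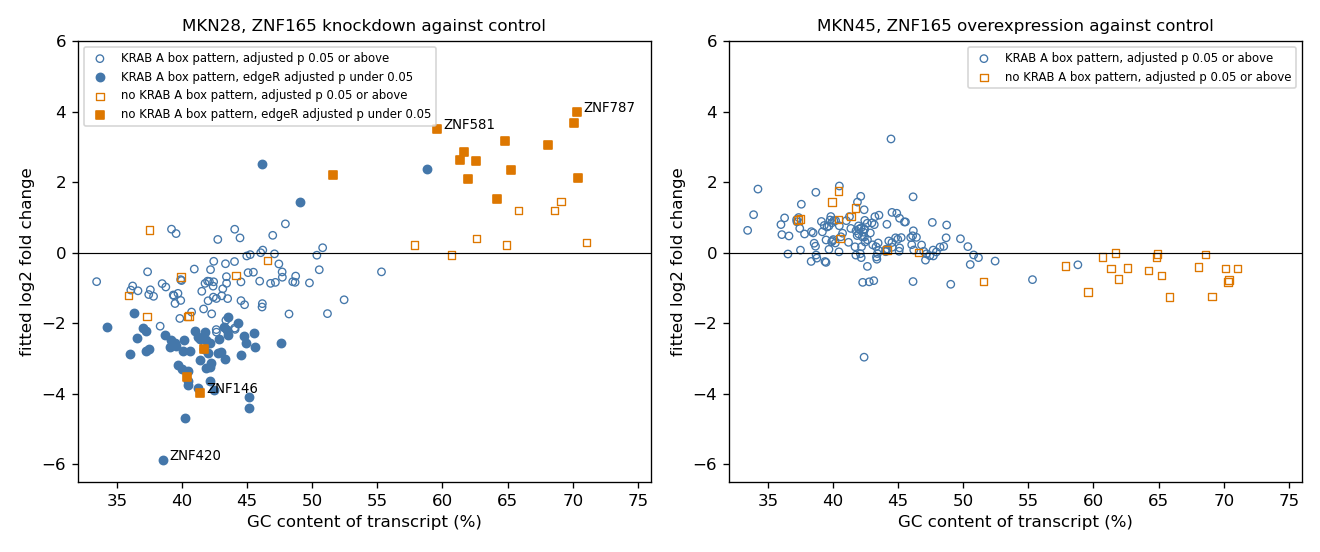
Fitted log2 fold change (y axis) against GC content of the transcript in percent (x axis) for the members tested in the knockdown (left) and the overexpression (right); filled symbols passed the edgeR threshold. Members near 40% GC lie mostly below 0 on the left and above 0 on the right, and members near 65% the other way round, with no member past the threshold on the right.

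The member with the largest rise was ZNF787 (ENSG00000142409, chr19:56087366-56121280, minus strand), which has 7 fingers and no KRAB pattern. It had 1010, 1718 and 1065 counts in control libraries and 4310, 14532 and 7612 after knockdown, with no overlap between groups. Its log2 fold change was 4.01 (SE 0.67, edgeR adjusted p = 0.00372). ZNF837 rose from 57, 69 and 58 counts to 175, 577 and 278, a log2 fold change of 3.68 (edgeR adjusted p = 0.00427). ZNF581 rose from 347, 681 and 325 counts to 1126, 3628 and 1989 (log2 fold change 3.52, edgeR adjusted p = 0.00456). In all 3, knockdown replicate 2 was the highest library and replicate 1 the lowest of its group. ZNF784, ZNF296, ZNF580, ZNF428 and ZNF414 rose by log2 fold changes of 2.61 to 3.16, each with every knockdown library above every control. None of the 8 had the KRAB pattern, and their transcripts held 59.6 to 70.3% GC. ZNF580 and ZNF581 overlap on the same strand in the annotation, and reads in the overlap cannot be assigned to 1 of them. Only 3 members with the KRAB pattern were called higher: ZNF749, ZNF324 and ZNF416, at log2 fold changes of 2.51, 2.38 and 1.45.

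ZNF420 (ENSG00000197050, chr19:37007857-37130314, plus strand), a KRAB protein with 19 fingers known as a negative regulator of p53, fell the most. It had 115, 76 and 177 counts in control libraries and 3, 0 and 0 after knockdown. The ratio of control to knockdown CPM was 57.1, with an exact Poisson 95% interval of 19.5 to 277 from counting error in the knockdown (edgeR adjusted p = 0.0037). ZNF420 passed this test filter through the controls alone, so a difference was set by the selection and the p-value adds no support. In MKN45 it had 140, 57 and 71 counts in controls and 110, 129 and 145 in the overexpression, groups that overlap. ZNF420 overlaps several genes on the opposite strand, and without a stated strand setting their reads cannot be told apart.

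ZNF224, a repressor that works with the WT1 protein, had 236, 73 and 550 counts in control libraries and 14, 3 and 1 after knockdown (log2 fold change -4.69, SE 0.95, edgeR adjusted p = 0.00541). ZNF607 had 339, 231 and 410 counts against 23, 3 and 5 (log2 fold change -4.08, SE 0.70, edgeR adjusted p = 0.00379). ZNF146, without a KRAB domain, had 2700, 1678 and 3556 counts against 211, 51 and 24 (log2 fold change -3.97, SE 0.68, edgeR adjusted p = 0.00379). The groups were separated in all 3, and knockdown replicate 1 was the highest knockdown library each time. ZNF30, ZNF284, ZNF443 and ZNF616 fell by 3.75 to 4.41 on the log2 scale, with no overlap between groups; the value of ZNF30 rests on 2 counts in the knockdown (ratio 21.5, exact Poisson 95% interval 5.96 to 178). Members this low in the knockdown, such as ZNF224, ZNF607 and ZNF30, passed the test filter through the controls alone. For them a difference was set by the selection, and the p-values add no support. For ZNF284 and ZNF443, 43.9% and 40.2% of the 50-base stretches also occur in another gene, so their counts are uncertain. ZNF146, ZNF507 and ZNF83 were the only members without the KRAB pattern to be called lower.

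By position, the knockdown left the clusters with different counts. Cluster 15 had 19 of 29 tested members lower and none higher (median -2.39), and cluster 12 had 10 of 20 lower and 3 higher (median -1.90). Cluster 16 had 10 of 43 higher and 3 lower (median -0.32), and 14 of its 46 members lack the KRAB pattern. With the length and GC trends removed, cluster 15 had 2 lower and 3 higher (median -0.24). Cluster 12 then had 3 lower and 4 higher (median -0.36), and cluster 16 had 3 lower and 13 higher (median 0.45). By number of fingers, 19 of 32 members with 17 or more were lower and 1 higher, while 4 of 37 with 0 to 8 were lower and 11 higher. The background was 21.6% lower and 19.2% higher. These classes also differed in median transcript length (4012.5 and 2332 bases) and GC content (41.9% and 48.7%). They were not read with the trends removed, so finger number cannot be told apart from length and GC content here.

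Members with known roles were read at the same settings. ZNF91 fell from 16.2 ± 7.18 to 3.85 ± 0.948 CPM (log2 fold change -2.14, SE 0.57, edgeR adjusted p = 0.0149). ZNF175, a suppressor of retroviral transcription, fell from 32.4 ± 16.9 to 4.48 ± 4.27 CPM (log2 fold change -2.89, SE 0.80, edgeR adjusted p = 0.0166). ZNF675, an inhibitor of TRAF6 signalling, fell by 1.70 on the log2 scale (edgeR adjusted p = 0.0437). ZNF274, which guides SETDB1 to the 3′ ends of ZNF genes themselves, stood at 25.4 ± 5.52 CPM in the controls and 29.1 ± 19.9 CPM in the knockdown, with overlapping groups (log2 fold change 0.14, SE 0.58, edgeR adjusted p = 0.858). ZNF350, a partner of BRCA1, ZNF8, ZNF45 and ZNF444 did not pass the threshold. ZNF382, ZNF667 and ZNF671, KRAB genes often methylated in tumours, had 46, 0 and 1 counts over the 12 libraries and were under the minimum.

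The overexpression comparison, in MKN45, gave no call among 169 members by edgeR, where the background was 1.13% of 15833 genes. At an unadjusted edgeR p under 0.05 there were 43 members, 25.4% against a background of 26.8%, 31 of them higher and 12 lower. DESeq2 called 22 members, 17 higher and 5 lower. It also called more of the other protein-coding genes of chromosome 19, 15 higher and 74 lower of 786, where edgeR called 1 and 3. Of 196 ZNF genes on other chromosomes it called 18 higher and 6 lower. The median was 0.34 for members and -0.002 for all genes tested. Members with the KRAB pattern had a median of 0.43 and those without it -0.25. Groups did not overlap for 42 members that were higher (24.9%, background 18.9%) and 10 that were lower (5.92%, background 19.4%). MKN45 control replicate 2 stood apart, with the median member at -0.47 against 0.20 and 0.21 in the other controls, and without it the median over members was 0.13. With the length and GC trends removed the median was 0.01.

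Some of the 10 members with the lowest p are given here, chosen after their values were seen. ZNF611, in cluster 15, had 48, 18 and 61 counts in controls and 211, 202 and 159 with ZNF165 overexpressed (log2 fold change 1.89, edgeR adjusted p = 0.0505). ZNF121 had 545, 226 and 783 against 2034, 2258 and 1993 (log2 fold change 1.75, edgeR adjusted p = 0.0526), and both had non-overlapping groups. ZNF700 had 117, 67 and 166 against 375, 408 and 370 (log2 fold change 1.44, edgeR adjusted p = 0.0531). ZNF551 had 33, 13 and 20 counts in controls and 385, 350 and 36 in overexpression replicates 1 to 3, so replicate 3 lay far nearer to the controls than the other two. ZNF581, among the risers of the knockdown, had 825, 933 and 934 counts against 392, 620 and 539 (log2 fold change -1.11, edgeR adjusted p = 0.0628). ZNF331 had 71, 48 and 17 counts against 172, 164 and 162 (log2 fold change 1.59, edgeR adjusted p = 0.0771). Of the members at 0 counts in all MKN45 controls, ZNF433, ZNF836, ZNF69, ZNF563 and ZNF257 had no count in any overexpression library, and ZNF320 had 1 and ZNF347 had 2 over the 3 libraries.

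The knockdown and the overexpression share no library. Across the 156 members tested in both, their fold changes had a Spearman's rho of -0.50, as a description. Both also followed GC content among the members, at rho 0.54 in the knockdown and -0.54 in the overexpression.

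Whether a higher level of ZNF165 went with an equal change in both lines was tested by adding the log2 fold changes of both arms, a sum that is 0 where the changes are equal and opposite. Of 186 members, 11 were above 0 and 16 below, 14.5% against a background of 17.5% (8.09% above and 9.38% below). With library totals alone the split was 7 above and 25 below. The members given next were picked for the smallest adjusted p in this same test. ZNF420 gave -5.55 (SE 0.91, edgeR adjusted p = 0.00435), ZNF607 -3.88 (SE 0.67, edgeR adjusted p = 0.00525), ZNF616 -3.66 (SE 0.72, edgeR adjusted p = 0.00773) and ZNF841 -3.64 (SE 0.72, edgeR adjusted p = 0.00763). All 4 fell in the knockdown and had overexpression values of -0.82 to 0.27 that did not pass the threshold. ZNF90 gave 8.09 (edgeR adjusted p = 0.0107), a value that depends on 0 counts in the MKN28 controls and is not a measured fold; it had 10, 20 and 0 counts in the knockdown.

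The corepressor pathway that KRAB proteins work through was read from a list of 21 genes. In the knockdown, 1 of 20 tested was higher and 12 lower (median -1.65), beside the background of 19.2% higher and 21.6% lower. With 1 library left out, 5 to 17 were lower: 5 without control replicate 1, 6 without control replicate 3, 7 without knockdown replicate 2 or 3 and 17 without knockdown replicate 1. With the length and GC trends removed, 3 were higher and 6 lower (median -0.45). ATF7IP, a partner of SETDB1, fell by 3.34 on the log2 scale (edgeR adjusted p = 0.00371) and kept its call under all 15 alternatives. TRIM28 itself, on chromosome 19, stood at 466 ± 80.5 CPM in the controls and 1603 ± 1037 CPM in the knockdown (log2 fold change 1.73, edgeR adjusted p = 0.0361). It had 9050, 11091 and 9290 counts against 7570, 22916 and 12015, groups that overlap. Its call was lost with library totals alone (edgeR adjusted p = 0.17). It was also lost in 5 of the 6 fits without 1 library, knockdown replicate 1 being the exception. Without knockdown replicates 2 and 3 together, 1 knockdown library is left, and the log2 fold change of TRIM28 was 0.256. SETDB1 had a log2 fold change of -1.44 (edgeR adjusted p = 0.0485), and its call was lost in 9 of the 15 alternatives, 5 of them fits without 1 library. In the overexpression none of 21 was called by edgeR, and DESeq2 called 3 higher. At an unadjusted edgeR p under 0.05 there were 6, 28.6% against a background of 26.8%. Between the lines 2 were higher and 2 lower in MKN45, or 2 higher and 8 lower with the replicate block. The higher ones included CBX1, which encodes a heterochromatin protein and stood at 0.0336 CPM in MKN28 controls and 120 CPM in MKN45 controls.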

How the data were processed

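Raw counts were deposited by the authors for each Ensembl gene and library as whole numbers, per the file headers. HISAT2 and StringTie were used per the submitters' processing notes, without versions; build, annotation, strand setting and counting step were not stated in these sources. Groups came from the labels' genotype and cell line fields.

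Members were matched by Ensembl identifier to GENCODE 29 (50111 of 50868 identifiers matched), with the transcript of longest coding sequence for length, GC content, fingers (C-x2-C-x12-H-x3 to 5-H) and the KRAB A box. Members, lists and tests were chosen with earlier results of these data known, and some lists with the data in view.

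Each comparison was fitted with edgeR 4.0.16 (R 4.3.3) on all genes of its own 6 libraries (all 12 for the sum of both effects): TMM factors, filterByExpr (minimum count 10, minimum total 15), glmQLFit and glmQLFTest, Benjamini-Hochberg adjustment, threshold 0.05. A member that passed the filter through 1 group alone had to differ. Alternatives were DESeq2 1.42.0, library totals, upper-quartile factors, no filter, replicate number as a block, length and GC trends removed per library with mgcv 1.9.3, 1 fit of 12 libraries, and libraries left out in turn. Knockdown replicates 2 and 3 were also left out together, which leaves 1 library in that group. On simulated counts, edgeR recovered 100 of 100 genes changed 8-fold in the knockdown, overexpression and line designs, and 26, 16 and 17 of 100 changed 2-fold. The simulation gave every gene the same fixed dispersion and changed only well-counted genes. It held no length or GC trend and no shift of single libraries, so these shares do not measure recovery in the real libraries. Floors are 3 counts; they and the intervals cover counting error only, since reads carried no molecular identifiers.

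Same-numbered control libraries of the lines deviated together (correlations 0.24, 0.48 and 0.26 over genes), which by the rule used counts as pairing. Some unlike-numbered ones did so too: MKN28 control 3 with MKN45 control 1 at 0.254, and MKN28 control 1 with MKN45 control 3 at 0.135. Replicate 2 alone stood apart from the other numbers in both lines. Pairing by number was thus not shown, and the labels do not state any. The named members are up to 8 higher and 8 lower per comparison by fold change among those called without overlap and at 1 CPM or more in a group, the 8 highest per kb, those at no more than 3 counts in a line, 5 of the sum test, 15 genes with known roles, and those next to the count minimum. Shared stretches are exact 50-base matches to the representative transcript of another gene.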

Additional observations from a re-analysis of the deposited data

Results flagged for a closer look

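The summed log2 fold changes of both arms differed from 0 for 27 of 186 members by the edgeR test, 14.5% against a background of 17.5% of all genes tested. Among the members named above, those with a sum over 0 were ZNF787 (3.22), ZNF837 (3.27), ZNF581 (2.44), ZNF784 (3.06), ZNF296 (2.72), ZNF580 (2.92), ZNF414 (2.22) and ZNF90 (8.09, against 0 counts in the MKN28 controls, so not a measured fold). Those with a sum under 0 were ZNF420 (-5.55), ZNF224 (-3.67), ZNF30 (-3.37), ZNF607 (-3.88), ZNF146 (-2.90), ZNF284 (-3.51), ZNF616 (-3.66), ZNF841 (-3.64) and ZNF175 (-2.68). Most of these members were named for the largest fold changes in the knockdown, which are part of the sum, and ZNF841 and ZNF90 were named by this same test. A sum away from 0 was thus favoured by their selection, and the list adds no support to the count above. Line, direction of the ZNF165 change and spread between knockdown libraries cannot be told apart in this design.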

How the results depend on the processing

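In the line comparison the count of members called (74) stayed within 1.5 times, from 53 to 98, under all 14 alternatives, 98 with the replicate block. Calls of the other protein-coding genes of chromosome 19 moved too, with 91 to 212 higher and 92 to 268 lower over the same alternatives. The median (-0.66) kept its direction and ranged from -0.81 to -0.40; it was over 1.5 times smaller without MKN28 control replicate 3 (-0.40) and without MKN45 control replicate 2 (-0.44).

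The knockdown was less stable. Removing the length and GC trends gave 49 calls and reversed the median to 0.039. With the replicate block as well there were 41 calls and a median of -0.056, while the replicate block alone gave 88 calls (median -1.53). Of 777 other protein-coding genes of chromosome 19, 225 were higher and 131 lower with the trends removed. They had 219 higher and 118 lower with the block as well, and 319 higher and 63 lower with the block alone. Leaving out 1 library gave 34 to 129 calls of members and medians of -2.18 to -0.87. Same-numbered libraries of the knockdown correlated at 0.28, 0.41 and -0.33 and those of the overexpression at -0.05, -0.05 and 0.08, so these numbers were not taken as pairs.

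In the overexpression, where 0 members were called, DESeq2 called 22, no filter on low counts 8 and trend removal 9, and leaving out 1 library 0 to 7. The median of 0.34 was 0.43 with library totals, 0.011 with trends removed, 0.059 with trends removed and the replicate block, and 0.13 to 0.50 with 1 library left out. For the sum of both effects (27 calls), DESeq2 called 42, no filter 44 and the replicate block 26; trend removal, chosen after seeing the data, gave 34, and leaving out 1 library 9 to 97, the highest without knockdown replicate 1. The other protein-coding genes of chromosome 19 moved too: over all alternatives they had 0 to 16 higher and 0 to 74 lower calls in the overexpression. For the sum of both effects they had 21 to 337 above 0 and 16 to 104 below. The cause of these changes was not tested.

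Of the single members tested under alternatives, 8 values lost their call, all in the knockdown (ZNF414 in 3 settings, ZNF443 in 2, ZNF428, ZNF30 and ZNF284 in 1 each), 541 kept it and 0 reversed. Depth limits members below about 1 CPM, for which few counts are expected in a library.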
